A study of Homo sapiens with 4 samples.

Results

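The BCL2 family decides whether the mitochondrial route to apoptosis is opened, and 10 of its genes are described here in ES2, an established line of human ovarian cancer cells, with and without EC359, an inhibitor of the leukemia inhibitory factor receptor LIFR. The genes were taken by symbol, as 3 pro-survival genes (MCL1, BCL2L1 and BCL2L2), 2 effectors (BAX and BAK1) and 5 BH3-only genes (BBC3, PMAIP1, BCL2L11, BID and BAD). All 10 were found among the 23228 gene symbols of the count tables, and all 10 were among the 12706 genes with enough counts to be tested. Cells were exposed for 12 h to EC359 at 10 nM or to vehicle (0.1% DMSO), all in RPMI medium with serum, and polyadenylated RNA was sequenced from 2 libraries per treatment. The study describes the duplicates as biologically independent, and all of them come from 1 cell line at 1 dose and 1 time, so p-values measure the spread between these cultures only. Reads counted on genes totalled from 25572494 to 31707553 per library, of which from 30595 to 38150 fell on the 10 genes.

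Pro-survival proteins hold the effectors BAX and BAK in check, and BH3-only proteins are the stress sensors that relieve this block or switch the effectors on. Once active, BAX and BAK permeabilize the outer mitochondrial membrane, cytochrome c leaves the mitochondrion and caspases are engaged. Many BH3-only genes are controlled at the level of transcription, whereas MCL1 protein turns over quickly and depends on continued transcription and translation. STAT3, which acts downstream of LIFR, is a known activator of MCL1 and BCL2L1 transcription in many cancer cells, so the transcripts bear on the question of which death genes respond when LIFR is blocked. The study measured cell death at the protein and cell level in other assays, and RNA counts say nothing of protein amounts. In other ovarian cancer lines it reported that a ferroptosis inhibitor, but not a pan-caspase inhibitor, abolished death under EC359.

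All members share a BH3 core, the stretch by which pro-death proteins bind pro-survival ones. Its coding bases are shown because it is the feature that all 10 genes have in common. The core was located in the annotated coding sequence as leucine or methionine, 3 residues, then glycine, alanine or serine, then aspartate. Its 6 codons are printed in capitals between 4 codons on either side, on the coding strand 5′ to 3′, from the GENCODE transcripts placed on GRCh37, the assembly that UCSC names hg19.
MCL1, chr1:150551341-150551382, minus strand, coding exon 1 of 3: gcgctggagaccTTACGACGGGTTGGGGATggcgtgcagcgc
BCL2L1, chr20:30309725-30309766, minus strand, coding exon 1 of 2: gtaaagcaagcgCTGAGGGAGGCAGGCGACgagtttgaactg
BCL2L2, chr14:23777100-23777141, plus strand, coding exon 1 of 2: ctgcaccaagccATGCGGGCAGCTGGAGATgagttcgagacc
BAX, chr19:49459032-49459073, plus strand, coding exon 3 of 6: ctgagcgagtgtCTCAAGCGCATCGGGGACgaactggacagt
BAK1, chr6:33543164-33543205, minus strand, coding exon 3 of 5: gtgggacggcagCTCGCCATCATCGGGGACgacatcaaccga
PMAIP1, chr18:57569893-57569934, plus strand, coding exon 2 of 2: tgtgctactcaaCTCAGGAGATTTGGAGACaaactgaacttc
BBC3, chr19:47729836-47729877, minus strand, coding exon 2 of 3: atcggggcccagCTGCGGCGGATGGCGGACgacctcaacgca
BCL2L11, chr2:111907668-111907709, plus strand, coding exon 2 of 3: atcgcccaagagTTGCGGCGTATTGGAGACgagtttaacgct
BID, chr22:18222181-18222222, minus strand, coding exon 3 of 5: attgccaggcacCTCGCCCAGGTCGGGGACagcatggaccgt
BAD, chr11:64039094-64039135, minus strand, coding exon 2 of 3: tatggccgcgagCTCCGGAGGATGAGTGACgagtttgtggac
Each stretch lay inside a single coding exon. The pattern occurred once in 9 of the 10 coding sequences, and in BID it occurred 2 times, of which the later is printed. The first core residue was leucine in 9 genes and methionine in BCL2L2, and the fifth was glycine in 8 genes, alanine in BBC3 and serine in BAD.

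The line was first checked against its label. Of 9 ovarian epithelial carcinoma markers 6 were tested, and their summed level was between 15167 and 16366 normalized counts under vehicle and between 16530 and 16619 under EC359. KRT7 and KRT18 made up most of this. KRT8 had 556 to 770 counts per library, WT1 76 to 119, PAX8 24 to 41 and KRT19 5 to 23. EPCAM, MUC16 and CDH1 had at most 4 counts in any library. The mesenchymal markers VIM, FN1 and CDH2 summed to between 219204 and 226532 normalized counts under vehicle and between 204358 and 206861 under EC359, and VIM had a log2 fold change of -0.17 (adjusted p = 0.0135). The part of this in the results below was not tested. The leukocyte markers PTPRC, CD3E, CD14 and CD79A and the endothelial markers PECAM1 and VWF also had at most 4 counts. The last of the 5 leukocyte markers, CD68, a lysosomal protein abundant in macrophages, had 2296 to 2914 counts per library, and the endothelial cadherin CDH5 reached 3585 ± 169 normalized counts under vehicle and 3510 ± 60.7 under EC359 (mean ± SD, n = 2 each). Normalized counts are read counts brought to the mean library size.

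MCL1 was the most abundant of the 10 transcripts in ES2 cells. Levels of different genes were compared as fragments per kilobase of transcript and per library size (FPKM), with lengths from the annotated transcripts. MCL1 lay between 211 and 221 FPKM over the 4 libraries. BAX followed with 74.7 to 78.5 FPKM, and the ranges of MCL1 and BAX did not overlap. BCL2L1 (36.1 to 40.0 FPKM), BAD (31.5 to 40.6 FPKM) and PMAIP1 (31.7 to 34.5 FPKM) came next. The ranges of BCL2L1 and BAD overlapped, as did those of BAD and PMAIP1, so the order within these 3 genes was not resolved. Below them, without overlap between neighbours, were BID (15.5 to 17.4 FPKM), BCL2L2 (10.6 to 13.1 FPKM), BAK1 (6.54 to 8.60 FPKM), BCL2L11 (1.65 to 1.98 FPKM) and BBC3 (0.256 to 0.560 FPKM). All these ranges hold the spread between libraries only. They leave out error from the 1 transcript length used per gene, from GC content and from sequence shared with other genes. The 2 BH3-only genes at the bottom of this order, BCL2L11 and BBC3, encode BIM and PUMA, which bind every pro-survival protein.

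**Figure D1:**
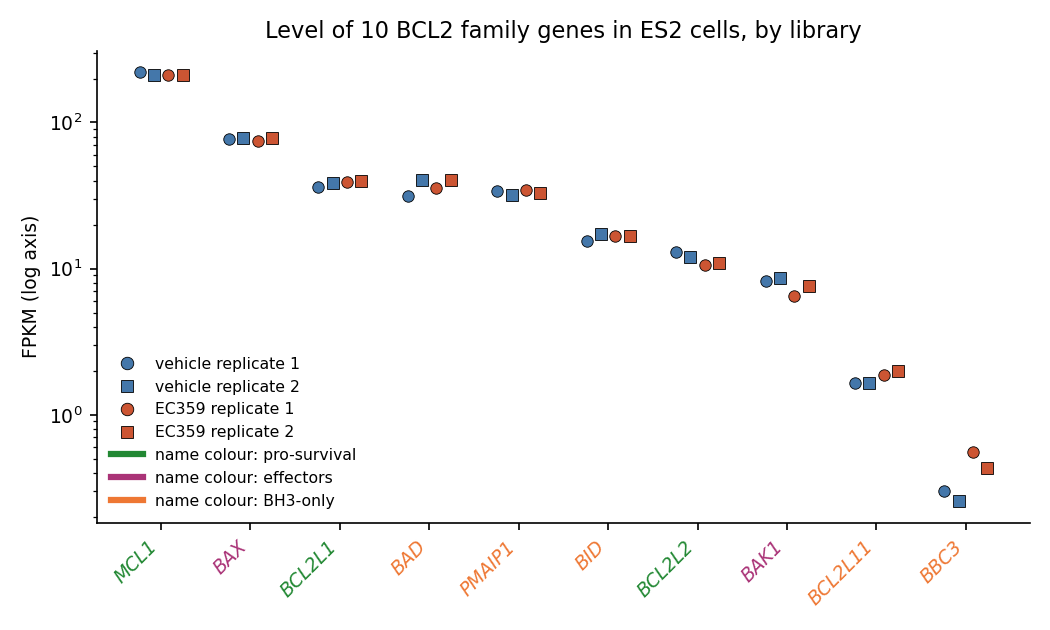
Level of each of the 10 genes in FPKM on a log axis, with 1 point per library, vehicle in blue and EC359 in red, and gene names coloured by role. MCL1 lies between 211 and 221 FPKM, and BBC3 between 0.256 and 0.560 FPKM.

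MCL1 alone made up 50.4% and 48.2% of the summed FPKM of the 10 genes in vehicle replicates 1 and 2. With EC359 its share was 49.1% and 47.9%. Among the 10, the pro-survival genes together stood at 1.61 and 1.47 times the summed pro-death genes under vehicle. Under EC359 they stood at 1.54 and 1.47 times. The treatments overlapped in both measures. Family genes outside the 10 are not in these sums. Of those, pro-survival BCL2A1 had 43.0 to 47.0 FPKM and BCL2 3.11 to 3.90 FPKM. Pro-death BOK had 0.420 to 0.592 FPKM and BMF 0.0588 to 0.205 FPKM. BCL2L12 had 16.8 to 21.9 FPKM and BCL2L13 17.1 to 18.5 FPKM, and neither was assigned a role here. The ratio of pro-survival to pro-death genes therefore holds for the 10 genes only. The ratio of BAX to BCL2L1, on the FPKM scale, was 2.13 and 2.05 under vehicle and 1.91 and 1.95 under EC359. Here the EC359 values were both lower. The same held for MCL1 to BCL2L1 (6.12 and 5.55 under vehicle, 5.41 and 5.27 under EC359). It also held for MCL1 to PMAIP1 (6.49 and 6.70 under vehicle, 6.14 and 6.42 under EC359). Among single genes, 51.5% of all those tested had no overlap between treatments in either direction. These ratios are descriptions without a test, and in RNA from whole dishes fewer cells of a kind and less RNA per cell cannot be told apart.

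EC359 was then set against vehicle over all genes with edgeR's quasi-likelihood test, and p was adjusted over all tested genes by the Benjamini-Hochberg method. The cutoff on adjusted p was the one in the methods of the study, which used DESeq. The study reported a far larger set of regulated genes from these cells, without saying beside it whether p was adjusted. Background percentages given here belong to the fits named and not to that set. At an adjusted p under 0.01, 0 of the 10 family genes were called, against a background of 1.09% of all tested genes. Among fits without a term for the replicate number, the count was also 0 with RLE factors (background 1.14%), total counts only (0.944%), limma voom (1.15%), no filter (0.367%), a minimum of 10 counts in every library (1.06%) and each library's GC trend removed (7.18%). DESeq2 called 0 as well (background 1.81%) and gave no adjusted p for BAK1, BBC3 and BCL2L11. With 1 library left out the count was 0 without vehicle replicate 1 (2.99%), EC359 replicate 1 (0%) or EC359 replicate 2 (0.0156%), and it was 1 without vehicle replicate 2 (4.13%). At an adjusted p under 0.05 it was 0 in all 4 libraries together, against 4.32% of all tested genes. At an unadjusted p under 0.05 there were 3 of 10, with BBC3 higher and BCL2L2 and BAK1 lower, against 21.6% of all tested genes in either direction. Library values did not overlap between treatments for 6 genes. The EC359 values were the higher ones for 3 of them (BCL2L1, BBC3 and BCL2L11), where the background was 26.1% of all tested genes, and the lower ones for 3 (MCL1, BCL2L2 and BAK1), where it was 25.4%. The median log2 fold change of the 10 genes was 0.033, beside 0.0029 over all tested genes. A missed threshold does not show that levels were alike, so each change is given below with its 95% interval from the same fit.

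Among the pro-survival genes, MCL1 had the narrowest interval of the family. Its normalized counts were 24615 and 23704 under vehicle and 23648 and 23461 under EC359. The EC359 libraries were lower, the first of them only just below the second vehicle library. The log2 fold change was -0.037 (standard error 0.031, 95% interval -0.10 to 0.032, adjusted p = 0.532), so that the interval ran from 0.930-fold to 1.02-fold. BCL2L1, which encodes BCL-XL, had 2623 and 2784 normalized counts under vehicle and 2848 and 2901 under EC359. All EC359 values were higher, and the gap between the treatments was smaller than that between the vehicle replicates. The log2 fold change of BCL2L1 was 0.088 (standard error 0.045, 95% interval -0.011 to 0.19, adjusted p = 0.284). MCL1 and BCL2L1 both have spliced forms that promote death in place of survival, and counts per gene add these forms together. Of the 50-base windows of BCL2L1, 33.6% are also in ABALON, a noncoding gene on the opposite strand.

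BCL2L2, which encodes BCL-W, had the lowest p of the 10 genes. Its normalized counts were 1303 and 1188 under vehicle and 1057 and 1089 under EC359. The EC359 libraries lay below both vehicle libraries, and the vehicle replicates differed from each other by about as much as the nearer of them differed from EC359. The mean was 1245 ± 80.8 under vehicle and 1073 ± 22.5 under EC359 (mean ± SD, n = 2 each), a log2 fold change of -0.22 (standard error 0.063, 95% interval -0.36 to -0.075, adjusted p = 0.0815). Without vehicle replicate 2 the adjusted p was 0.00987 and the log2 fold change -0.29, at a background of 4.13% of genes called. Without vehicle replicate 1 they were 0.237 and -0.15. BCL2L2 shares 15.6% of its 50-base windows with BCL2L2-PABPN1, a readthrough transcript on the same strand that was listed at 0 in every library. Reads that lay on several genes were set aside as ambiguous, so this 0 does not show that the readthrough was absent. Any such reads would be missing from BCL2L2 as well.

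The effectors differed from each other in how well they were measured. BAX had 1723 and 1760 normalized counts under vehicle and 1676 and 1744 under EC359, and the treatments overlapped. Its log2 fold change was -0.026 (standard error 0.050, 95% interval -0.14 to 0.085, adjusted p = 0.81). BAK1 had 505 and 526 normalized counts under vehicle and 401 and 468 under EC359. Both EC359 libraries were lower, and they were further from each other than the vehicle libraries were. The log2 fold change of BAK1 was -0.25 (standard error 0.091, 95% interval -0.45 to -0.046, adjusted p = 0.149). It was -0.14 without EC359 replicate 1 and -0.36 without EC359 replicate 2, with adjusted p of 0.62 and 0.339. Of the 50-base windows of the BAK1 transcript, 14.9% also occur in the pseudogene BAK1P1 or in GGNBP1, which overlaps it on the opposite strand.

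BBC3, which encodes PUMA, had the largest fitted change of the 10 genes and the fewest reads. The raw counts were 14 and 12 under vehicle and 33 and 24 under EC359. At the mean library size these were 15.6 and 13.4 normalized counts under vehicle and 29.2 and 22.4 under EC359. Each EC359 value exceeded each vehicle value. The log2 fold change was 0.83 (standard error 0.33, 95% interval 0.093 to 1.58, adjusted p = 0.182), which spans from 1.07-fold to 2.98-fold. With so few reads the size of this difference was not resolved. Its transcript has the highest GC content of the 10 (69.7%), and with each library's trend against GC content removed the log2 fold change was 0.66 and the adjusted p 0.252.

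BCL2L11, which encodes BIM, had 239 and 237 normalized counts under vehicle and 270 and 285 under EC359. The vehicle libraries nearly coincided and both EC359 libraries were higher. The log2 fold change was 0.22 (standard error 0.10, 95% interval -0.0037 to 0.44, adjusted p = 0.238). Of its 50-base windows 13.5% are also in MIR4435-2HG, a noncoding gene on the opposite strand.

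The other BH3-only genes showed treatments that overlapped. PMAIP1 encodes NOXA, the partner that binds MCL1 and promotes its loss, and it had 1823 and 1700 normalized counts under vehicle and 1850 and 1756 under EC359 (log2 fold change 0.034, 95% interval -0.088 to 0.16, adjusted p = 0.77). BID, which caspase-8 cleaves to carry death receptor signals to the mitochondrion, had 949 and 1066 under vehicle and 1035 and 1026 under EC359 (log2 fold change 0.033, 95% interval -0.12 to 0.18, adjusted p = 0.831). BAD, whose protein is held inactive by phosphorylation, had 826 and 1064 under vehicle and 929 and 1057 under EC359 (log2 fold change 0.071, 95% interval -0.17 to 0.31, adjusted p = 0.752). The vehicle replicates of BAD were further apart than the treatment means. BAD overlaps GPR137 on the opposite strand over part of its transcript, and 26% of its 50-base windows are also found there. GPR137 had 745 and 867 normalized counts under vehicle and 837 and 896 under EC359, and like BAD its lowest value was in vehicle replicate 1.

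**Figure D2:**
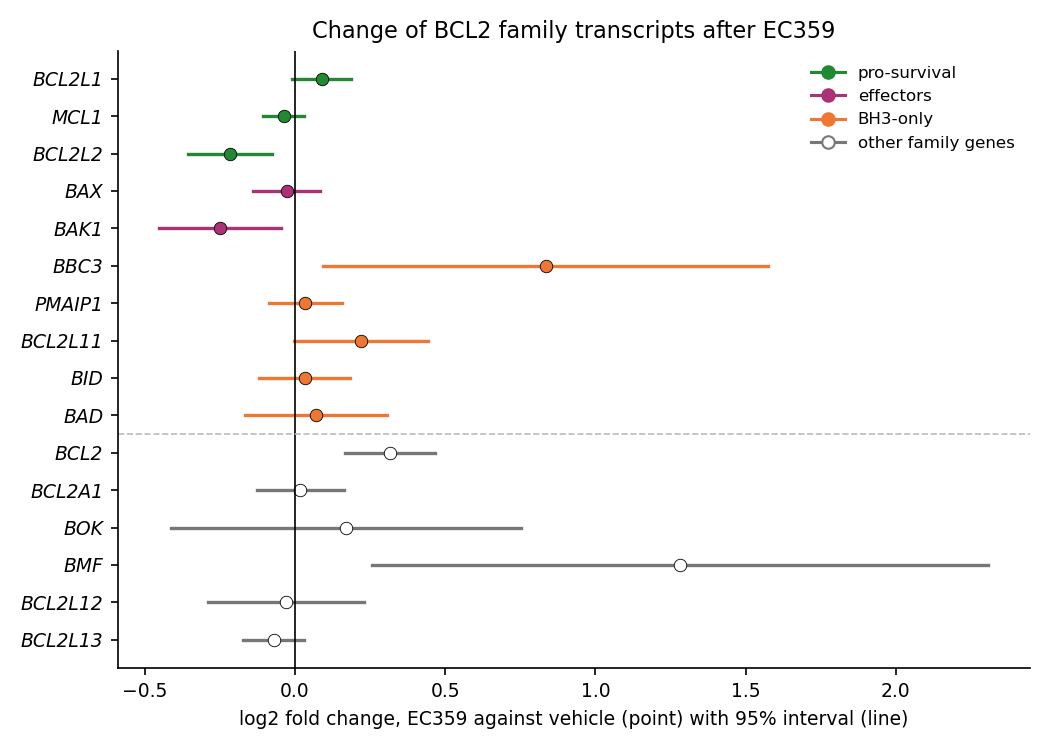
Log2 fold change of EC359 against vehicle for the 10 genes (filled points, coloured by role) and for the 6 other tested BCL2 family genes (open points), with lines for the 95% interval of the fit. The intervals of BCL2L2, BAK1, BBC3, BCL2 and BMF leave out 0 before adjustment for the number of genes tested, and that of MCL1 runs from -0.10 to 0.032.

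By role, the 5 BH3-only genes all had a fitted change above 0 (0.033 to 0.83), and the 2 effectors both had one below 0. Of all 12706 tested genes, 6476 were above 0 and 6230 below, and a pattern by role was not tested. For PMAIP1, BID and BAD this sign changed in at least 1 of the 13 other fits, as it did for BAX. BCL2L1, MCL1, BCL2L2, BAK1, BBC3 and BCL2L11 kept their sign in each of the 13. How often other genes kept theirs is not given here.

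**Figure D3:**
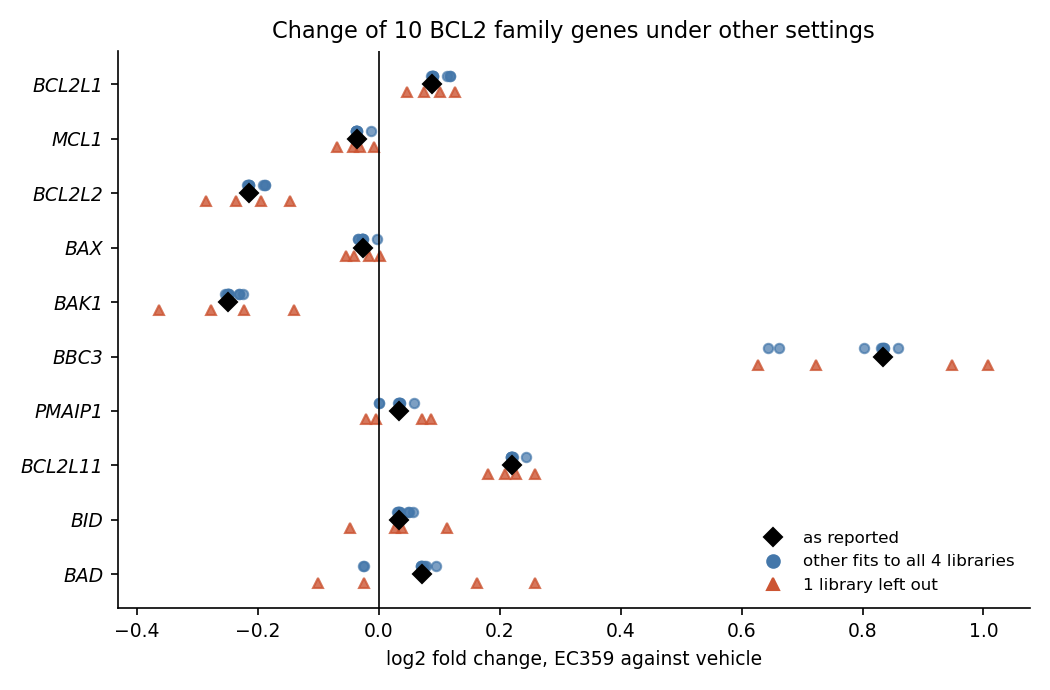
Log2 fold change of each of the 10 genes as reported (black diamonds), in 9 other fits to all 4 libraries (blue circles) and with 1 library left out (red triangles, 4 fits). BBC3 spreads most among these fits, from 0.63 to 1.01, and the points of PMAIP1, BID, BAX and BAD fall on both sides of 0.

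Outside the 10 genes, the family gene with the lowest p was BCL2, the founding pro-survival member. It had 608 and 603 normalized counts under vehicle and 751 and 757 under EC359. Replicates nearly coincided within each treatment and the EC359 libraries were higher. The log2 fold change was 0.32 (standard error 0.067, adjusted p = 0.0272), short of the 0.01 threshold. BMF, another BH3-only gene, had only 8.89 and 7.79 normalized counts under vehicle and 14.2 and 27.1 under EC359 (log2 fold change 1.28, standard error 0.46, adjusted p = 0.144). BOK, an effector related to BAX and BAK, was low as well, with 33.9 ± 3.96 normalized counts under vehicle and 38.3 ± 7.89 under EC359 (mean ± SD, n = 2 each, adjusted p = 0.758). Of 11 further family genes 6 were tested, and BCL2L10, BIK, HRK, BCL2L14 and BCL2L15 had at most 4 counts in any library. Among these 6 tested genes 0 were called at 0.01 (1.09% of all tested genes), and 2 were higher and 0 lower at an unadjusted p under 0.05, where the background was 10.7% of all tested genes higher and 11% lower.

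The machinery downstream of the BCL2 family was examined as lists of genes with a known role in it. With edgeR, 0 of its tested genes passed the 0.01 threshold, against 1.09% of all tested genes. Of 8 genes for mitochondrial death partners, 7 had a fitted change below 0, with a median log2 fold change of -0.068. Of all 12706 tested genes 6230 were below 0, and only 1 of the 8 had an unadjusted p under 0.05. The lowest p was that of VDAC1, an outer membrane channel (log2 fold change -0.12, adjusted p = 0.146), followed by VDAC2 (-0.10, adjusted p = 0.33) and VDAC3 (-0.057, adjusted p = 0.399). CYCS, which encodes cytochrome c, had 9219 ± 42.8 normalized counts under vehicle and 8912 ± 134 under EC359 (mean ± SD, n = 2 each, adjusted p = 0.411). Among 8 genes of the apoptosome and caspases the median was -0.12. DFFA, the inhibitor of the caspase-activated nuclease, had 2221 ± 12.8 and 1953 ± 51.1 normalized counts (log2 fold change -0.19, adjusted p = 0.0524). CASP6 had a log2 fold change of -0.17 (adjusted p = 0.408).

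The inhibitors of apoptosis proteins, which block caspases or their activation, had 5 tested genes, and in all 5 the libraries of the treatments did not overlap, as was the case in 51.5% of all tested genes. BIRC3 (log2 fold change 0.36, adjusted p = 0.0991) and BIRC2 (0.069, adjusted p = 0.289) were among those with higher values. BIRC5, which encodes survivin and also serves in mitosis, had 5295 ± 118 normalized counts under vehicle and 4811 ± 0.113 under EC359 (mean ± SD, n = 2 each, log2 fold change -0.14, adjusted p = 0.0563). In the death receptor arm, 12 of 14 genes were tested and the median was -0.082. TNFRSF10B, a receptor for the ligand TRAIL, had a log2 fold change of -0.15 (adjusted p = 0.0647), and its decoy relative TNFRSF10D had one of -0.11 (adjusted p = 0.0805). TNFRSF10C, another decoy, was low and had the widest difference (16.7 ± 6.30 against 8.26 ± 4.17 normalized counts, SD, n = 2 each, adjusted p = 0.257).

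Regulators of the members were examined in the same way. Among 6 tested genes for the turnover of MCL1 protein 0 were called, against 1.09% of all tested genes, and the lowest p belonged to the ubiquitin ligase HUWE1, also known as MULE (log2 fold change -0.11, adjusted p = 0.0832). The deubiquitinase USP9X followed (-0.080, adjusted p = 0.219), and then MARCH5, a mitochondrial ligase (0.063, adjusted p = 0.438). Among 8 tested transcription factors known to act on BH3-only genes, ATF4, the stress factor that can induce PMAIP1 and BBC3, had 4308 ± 142 normalized counts under vehicle and 3733 ± 9.75 under EC359 (mean ± SD, n = 2 each, log2 fold change -0.21, adjusted p = 0.0177). FOXO1 had a log2 fold change of -0.26 (adjusted p = 0.208). STAT3 itself had 1876 ± 47.9 and 1880 ± 31.0 normalized counts (adjusted p = 0.981). Over all 66 tested apoptosis genes outside the 10, some of which are not described here, 17 had an unadjusted p under 0.05, 6 of them higher and 11 lower, where the background was 21.6%.

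**Figure D4:**
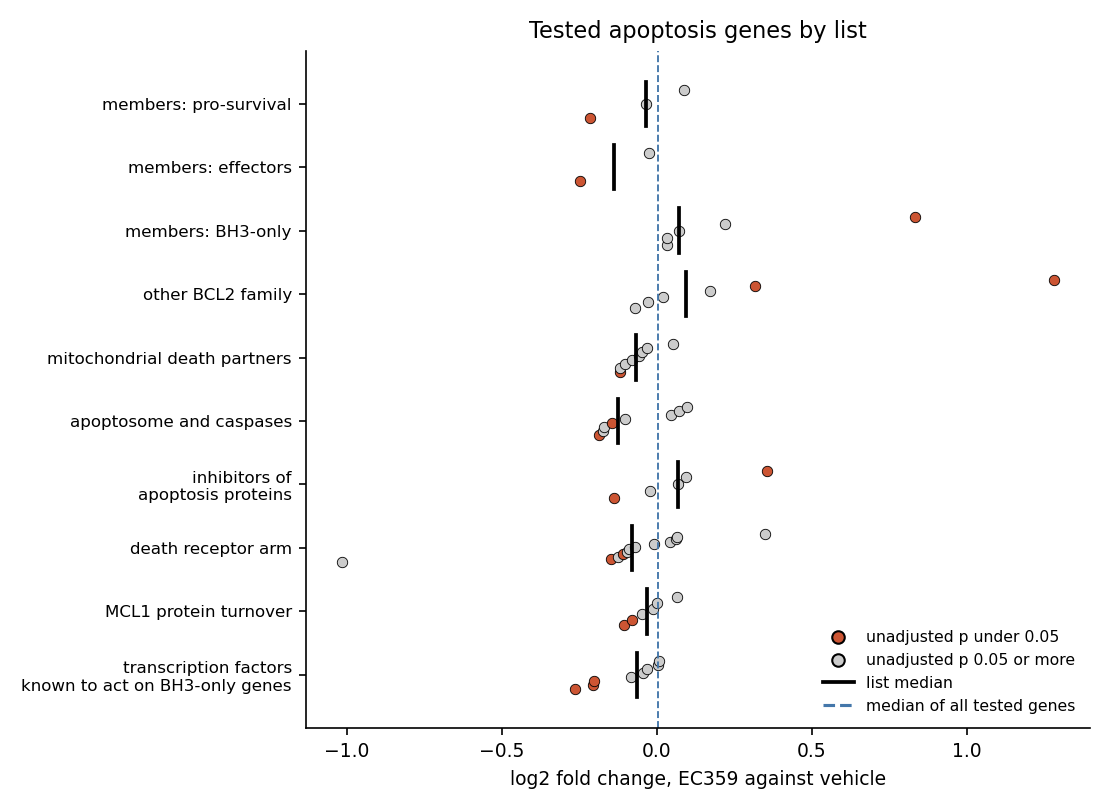
Log2 fold change of EC359 against vehicle for each tested gene of the lists described, grouped by list, with red points for an unadjusted p under 0.05, a black bar at the median of each list and a dashed line at the median of all tested genes (0.0029). List medians lie between -0.14 (effectors) and 0.095 (other BCL2 family), and 0 of the points passed an adjusted p of 0.01.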

How the data were processed

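RNA from ES2 cells was measured in 2 libraries per treatment, all of which were used. Single-end reads of 50 bases were aligned by the authors to UCSC hg19 with TopHat2 (2.0.8b per the labels) and assigned by HTSeq to NCBI RefSeq genes. What was deposited are raw counts for each gene symbol, not normalized. The strand setting of the counting is not given in the sources used here, so members that overlap a gene on the opposite strand are uncertain. Summary rows were left out of library sizes and all tests. Of reads aligned at a single place, 10.9% to 12.0% lay on no gene and 0.852% to 0.879% on several.

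The filter was filterByExpr in edgeR 4.0.16 (minimum count 10, minimum total 15). TMM factors were used, and the quasi-likelihood test was run in R 4.3.3 with p adjusted over 12706 genes. A standard error is the absolute log2 fold change over the root of F, and intervals use the t distribution of that fit. FPKM was computed from the counts, effective library sizes and the length of 1 GENCODE transcript per gene. Shared sequence is the share of 50-base windows of that transcript found in transcripts of other genes, on either strand. Replicates varied beyond sampling noise (chi-square over its degrees of freedom 3.81 in vehicle, 2.72 in EC359). Genes named are the 10 members and, per list, up to 3 with the lowest p, plus the 3 genes nearest in pattern to the member with the lowest p. BCL2A1, BCL2L10, BCL2L12, BIK, HRK, BCL2L14, BCL2L15, BOK, CYCS, TNFRSF10C, STAT3, GPR137 and the markers were named after their values were seen. The members and lists were chosen with earlier results of these data known, and they support nothing by themselves. Some results are not reported here. Alternatives were RLE factors, total counts only, DESeq2 1.42.0, voom of limma 3.58.1, other filters and thresholds, a fit with replicate number as a block, subtraction of the trend of each library against GC content (known for 86.1% of tested genes) and leaving out each library. The tests were checked on simulated counts.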

Additional observations from a re-analysis of the deposited data

How the results depend on the processing

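Of all genes, 139 were called as reported. Settings that moved this by over 1.5 times were DESeq2 (230 genes, 60 higher and 170 lower), no filter (61, 17 higher and 44 lower), the GC trend removed (912, 347 higher and 565 lower), an adjusted p under 0.05 (549, 213 higher and 336 lower) and an unadjusted p under 0.05 (2750). Leaving out 1 library gave from 0 to 539 genes, with 0 without EC359 replicate 1, 2 without EC359 replicate 2, 390 without vehicle replicate 1 and 539 without vehicle replicate 2. The lone library is then assumed to vary like the other group.

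The 0 called members became 3 at an unadjusted p under 0.05, and between 0 and 1 with a library left out, BCL2L2 being the 1. The other apoptosis genes called went from 0 to 1 with DESeq2 (ATF4), 4 with the GC trend removed (BCL2, VDAC1, DFFA and ATF4), 2 at an adjusted p under 0.05 (BCL2 and ATF4), 17 at an unadjusted p under 0.05, and between 0 and 1 with a library left out (ATF4 without vehicle replicate 1). DESeq2 gave no adjusted p for BAK1, BBC3 and BCL2L11.

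The libraries share replicate numbers, and no label says that a number marks a batch. Over 12706 genes the differences between replicates 1 and 2 had a Pearson r of 0.0987 and a Spearman rho of 0.231 between the treatments (genes are not independent replicates). A replicate block called 1539 genes (692 higher, 847 lower; 12.1%), 1 member (BCL2L2, adjusted p = 0.00426) and 9 other apoptosis genes (1 higher, 8 lower). With the GC trend removed and a replicate block it was 1942 genes (836 higher, 1106 lower; 15.3%), 2 members (BCL2L2, adjusted p = 0.00272, and BCL2L1, adjusted p = 0.00607) and 13 other apoptosis genes (2 higher, 11 lower). The cause of these changes was not tested.

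The fitted sign changed for 4 members. For BAD the log2 fold change was -0.027 with the GC trend removed, -0.025 with the block as well, and -0.10 to 0.26 with a library left out (-0.100 without vehicle replicate 1, -0.024 without EC359 replicate 2). For PMAIP1 it was -1.0e-04 with the GC trend removed, -0.00029 with the block as well, and -0.021 to 0.086 with a library left out (-0.0045 without EC359 replicate 1). For BAX it was -0.055 to 0.0020 with a library left out (positive without EC359 replicate 1), and for BID -0.048 to 0.11 (negative without vehicle replicate 1). With 2 libraries per treatment and 12 to 33 reads per library, BBC3 is the member that depth limits most.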

Other observations

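Over the 4 libraries, the genes whose centred log2 profile was nearest to that of BCL2L2, among 11204 other genes with at least 50 normalized counts, were ZMAT5, TMEM187 and RPL31, at root mean square distances of 0.0094, 0.0094 and 0.011 on the log2 scale. Their log2 fold changes were -0.21, -0.21 and -0.22. There were 303 genes within 0.05 of BCL2L2, so 4 libraries do not single out these 3.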
